A study of Mus musculus with 4 samples.

Results

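The 10 genes described here are 9 markers of mural cells, the pericytes and smooth muscle cells that wrap blood vessels, and Pdgfb, the growth factor with which the endothelium recruits them. They were taken by gene symbol, and each was found on 1 line of the 23282 gene lines in the deposited counts. All 10 were among the 9347 genes that passed the filter on low counts. The markers were the receptor Pdgfrb, the pericyte genes Rgs5, Kcnj8, Cspg4, Notch3 and Vtn, and the muscle genes Acta2, Tagln and Des. None of the 10 passed the test between endothelial cells (ECs) of the dura mater and of the brain with p-values adjusted over all genes (edgeR). Of all genes tested, 0.61% did. At an unadjusted p under 0.05 in edgeR, 1 of the 10 was higher in dura mater, against 7.04% of all genes tested. DESeq2 called 1, against 9.02% of the genes it gave an adjusted p. Kcnj8, Cspg4 and Notch3 had 5 or fewer counts in each brain library and 65 or more in each dura mater library. They passed the filter only through the dura mater libraries. Of all genes tested, 8.14% had such a pattern (7 counts or fewer against 64 or more). Pdgfrb, Acta2 and Des had 284 or more counts in each of the 4 libraries, and Pdgfb had 200 or more.

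RNA was sequenced from 2 libraries of ECs of the dura mater, the outer membrane of the brain, and from 2 libraries of ECs of the brain parenchyma, all from C57BL/6J mice at 8 weeks of age with no treatment named in the labels. Per the methods of the study, cells of enzyme-digested tissue that carried CD31 but neither CD45 nor TER-119 were isolated by flow cytometry, and brain ECs, but not dura mater ECs, had first been enriched with CD31 magnetic beads. The question was how ECs of these tissues differ in expression, and the study elsewhere blocked PDGFRβ in the injured dura mater, where cells with this receptor lie on vessels and also in the stroma. Whether the 2 libraries of a tissue came from separate mice, and how many mice were pooled, is not stated, so the p-values measure only the spread between these libraries, which may be technical.

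PDGF-B is made by ECs, is held near the vessel wall by heparan sulphate and binds PDGFRβ on pericytes and smooth muscle cells, which depend on it for their recruitment and survival. Pericytes cover the capillaries of the brain densely and share a basement membrane with the endothelium, whereas smooth muscle cells ring arterioles and arteries and carry a contractile machinery built on α-smooth muscle actin. Sorted ECs need not be free of mural RNA, because fragments of pericytes can stay attached to the endothelium through tissue digestion. In bulk libraries such as these, fewer cells of a type and less RNA per cell cannot be told apart.

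The libraries held 13518973 to 16096203 counts. A list of 15 endothelial genes had 11508 to 15328 CPM (counts divided by the effective library size of edgeR in units of 1000000) in each library, with 14 or 15 of its genes at 64 counts or more, so the label of the cells was borne by its defining markers. Replicates were far apart for most genes, with a common biological coefficient of variation of 1.39. Of the genes with 64 or more counts in a brain library, 31.3% had 7 or fewer in the other brain library, and 30.7% did so between the dura mater libraries. Among the mural markers and Pdgfb, 1 of the 7 genes at that level in brain (Vtn) and 1 of the 10 in dura mater (Rgs5) behaved in this way. Other cell types were also read in the sorts. Erythroid genes (8 in the list) summed to 26514 and 37944 CPM in brain replicates 1 and 2, and to 2196 and 1123 CPM in dura mater replicates 1 and 2, and near-identical globin copies can share reads. Fibroblast genes (15 in the list) summed to 3711 and 3487 CPM in brain and to 11807 and 11885 CPM in dura mater. Most of this was Mgp, which ECs also make. Without Mgp the list summed to 1179 and 1269 CPM in brain and to 846 and 955 CPM in dura mater. Fn1 had 1123 and 1217 CPM in brain and 369 and 470 CPM in dura mater. Without Fn1 as well, the sums were 56.6 and 51.3 CPM in brain against 476 and 485 CPM in dura mater. The direction of the sum thus turned on Mgp and Fn1, which were taken out after their values were seen. Leukocyte genes stayed at 1.24 to 72.3 CPM in sum, with the pan-leukocyte gene Ptprc at 4 counts or fewer in each library, and neural and glial genes at 5.75 to 298 CPM. In edgeR's test 0 of the 15 endothelial genes (2 at an unadjusted p under 0.05, 1 in DESeq2), 0 of 2 tested leukocyte genes (0 and 1) and 0 of 5 tested neural and glial genes (2 and 2) were called, with median log2 fold changes of 0.10, 1.18 and 6.48, while 5 of 7 tested erythroid genes were called and lower in dura mater (median -4.29). The called erythroid genes were the globins Hba-a1, Hbb-bs, Hbb-bt, Hbb-b1 and Hbb-b2, with log2 fold changes of -4.29 to -4.15. The most counted genes of the other lists were Egfl7 (-0.66), Esam (-0.83) and Ptprb (0.30) of the endothelium, Cd68 (4 and 3 counts in brain, 550 and 441 in dura mater), Csf1r (4 and 646, 28 and 9) and Tmem119 (2 and 1, 287 and 0) of leukocytes and microglia, and Slc1a2 (1 and 0, 863 and 87), Slc1a3 (1 and 1, 915 and 74) and Mbp (1476 and 4, 1027 and 6) of neural and glial cells.

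**Figure D1:**
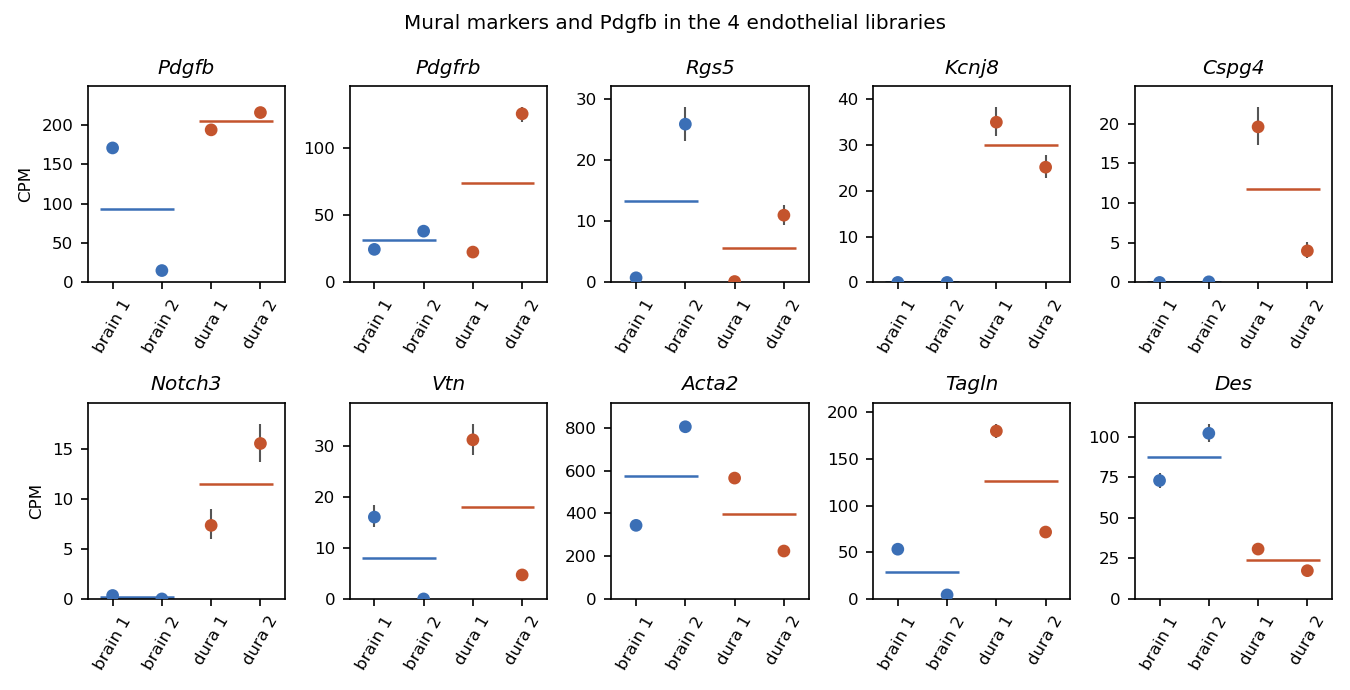
CPM of each of the 10 genes (vertical axis, a scale of its own for each gene, starting at 0) in the 4 libraries (horizontal axis), with brain in blue and dura mater in orange. Points are single libraries with the 95% interval of counting error only, and horizontal lines are the means of 2 libraries; Kcnj8, Cspg4 and Notch3 lie near 0 in both brain libraries, and Rgs5 is high in replicate 2 of either tissue.

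Pdgfb, the endothelial ligand (chromosome 15, 79995874 to 80014977, minus strand, GRCm38), had 171 and 15.1 CPM in brain replicates 1 and 2, against 194 and 216 CPM in dura mater replicates 1 and 2. The groups did not overlap, but 3 of the 4 libraries lay close together and brain replicate 2 stood 11.3-fold below the nearest of them. Dura mater ECs averaged 205 ± 15.8 CPM and brain ECs 93.2 ± 110 CPM (SD, n = 2), and the log2 fold change, always given as dura mater over brain, was 1.13 (SE 1.06, 95% interval -1.44 to 3.71; edgeR quasi-likelihood test, adjusted p = 0.952). Against brain replicate 1 alone, the dura mater mean was 1.19-fold higher. Without brain replicate 1, which leaves the low brain library as the sole one of its tissue, the log2 fold change was 3.70 and passed the test (edgeR adjusted p = 0.00205), and without brain replicate 2 it was 0.19. Brain replicate 2 was the lowest library by at least 10-fold for 1050 of the 9347 genes tested (11.2%), so Pdgfb shared this pattern with many genes. The 5 genes whose log2(CPM + 1) across the 4 libraries was most like that of Pdgfb were Zmym2, Cog3, Zfand6, Ep300 and Wdr43, with root-mean-square differences of 0.093 to 0.135 after centring, and each of them was lowest in brain replicate 2.

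Pdgfrb, the receptor on mural cells and some fibroblasts (chromosome 18, 61045150 to 61085061, plus strand), had 24.5 and 38 CPM in the brain libraries and 22.5 and 125 CPM in the dura mater libraries. The dura mater thus held both the lowest and the highest library, and dura mater replicate 2 stood 3.28-fold above the next. The means were 31.3 ± 9.57 CPM in brain and 73.7 ± 72.3 CPM in dura mater (SD, n = 2), and the log2 fold change was 1.23 (SE 1.41, interval -2.18 to 4.65; adjusted p = 1 in edgeR). Without dura mater replicate 2 the sign turned, to -0.49. Dura mater replicate 2 was highest by at least 3-fold for 295 of the genes tested (3.16%). The genes most like Pdgfrb across the libraries were Phf11a, Purg, Tomm40, Zcchc9 and Ebag9, with root-mean-square differences of 0.059 to 0.201 on the log2 scale. Of these only Tomm40 was read above 20 CPM in any library, with 17.3 and 26.5 CPM in brain and 18.9 and 72.6 CPM in dura mater. Of the fibroblast list, Dcn, Col1a1 and Col1a2 had 4 to 42 counts in brain and 759 to 1913 in both dura mater libraries. These were picked after their values were seen, from 15 genes that did not all follow. Lum was at 4 counts or fewer in all 4 libraries, Pdgfra and Fbln1 at 1 or fewer and Slc6a13 at 0. Of the 8 genes tested, 7 were higher in dura mater with no overlap and 1, Fn1, was lower. The part of fibroblast RNA in the level of Pdgfrb was not tested.

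Of the other PDGF genes, Pdgfa, a ligand of the related receptor PDGFRα, had 706 and 1141 counts in brain and 445 and 1449 in dura mater, so that the brain values lay between those of the dura mater (log2 fold change -0.15, SE 1.11). The receptor-like gene Pdgfrl had 328 and 0 counts in brain and 214 and 380 in dura mater. Pdgfc and Pdgfd, the remaining ligands, were at 0 in each library, which at these depths allows up to 0.227 CPM (3 counts) by counting error alone. Pdgfb and Pdgfa were thus the PDGF ligands read in these sorts. Of these 5 genes only Pdgfa and Pdgfrl could be tested (median log2 fold change 0.32), and 0 were called by edgeR, at an adjusted or an unadjusted p, or by DESeq2.

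Kcnj8, the pore subunit of the ATP-sensitive potassium channel of pericytes (chromosome 6, 142564837 to 142571614, minus strand), was not read in brain (0 and 0 counts) and had 468 and 410 counts in dura mater, or 34.9 and 25.1 CPM. The dura mater mean was 30 ± 6.92 CPM (SD, n = 2). Set against a floor of 3 counts per brain library, which covers counting error only, the dura mater level was 138-fold higher or more. Between the brain libraries, 31.3% of genes with 64 or more counts in 1 had 7 or fewer in the other. The 138-fold value is therefore not a lower limit on the difference between tissues. The fitted log2 fold change was 7.76 (SE 2.70, interval 0.94 to 14.58), which depends on the prior count of 2. In edgeR the unadjusted p was 0.0325 and the adjusted p 0.466, while DESeq2 gave an adjusted p of 0.00744. Over the alternatives the adjusted p ran from 0.00744 to 0.924. Abcc9, which encodes the sulphonylurea receptor that pairs with Kcnj8 in this channel, did not follow it: it had 0 and 404 counts in brain and 108 and 1384 in dura mater. The alternative subunits Kcnj11 and Abcc8 had 0 counts throughout.

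Cspg4, the proteoglycan NG2 of pericytes, smooth muscle cells and oligodendrocyte precursors (chromosome 9, 56865033 to 56899870, plus strand), had 0 and 1 counts in brain and 263 and 65 counts in dura mater. The dura mater values, 19.6 and 3.98 CPM, were themselves far apart, and the higher was in replicate 1. The ratio of the summed counts, 1 in brain against 328 in dura mater, was 306 after scaling for depth (exact 95% interval 54.5 to 12115, counting error only). With the spread between libraries, the fitted log2 fold change was 6.08 (SE 2.96) and the adjusted p in edgeR 0.522. The neural and glial list moved in the same order in the dura mater, at 298 CPM in replicate 1 and 59 CPM in replicate 2, against 103 and 5.75 CPM in brain; 8 and 4 of its 12 genes reached 64 counts in the dura mater libraries and 1 in each brain library, with Mbp, a myelin gene, and the astrocyte glutamate transporter genes Slc1a3 and Slc1a2 the most counted in dura mater replicate 1, and Aqp4 at 0 in all 4. Its part in the Cspg4 counts was not tested.

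Notch3, the Notch receptor of mural cells (chromosome 17, 32120820 to 32166852, minus strand), had 5 and 0 counts in brain and 99 and 254 counts in dura mater, which is 7.38 and 15.6 CPM. Unlike Cspg4 it was higher in dura mater replicate 2. The summed counts, 5 against 353, gave a ratio of 65.8 (exact 95% interval 27.9 to 204, counting error only) and the fitted log2 fold change was 5.22 (SE 3.20), at an adjusted p of 0.693 in edgeR. An antisense gene, Gm17276, overlaps 6.03% of the exon length of Notch3, and whether reads were counted by strand is not given in the sources used here.

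Kcnj8, Cspg4 and Notch3 were the 3 genes of the 10 that stayed at 7 counts or fewer in either brain library and reached 64 in either dura mater library. They passed the filter only through the dura mater libraries, and 761 of the genes tested (8.14%) had this pattern. The shared direction of these 3 follows from the pattern by which they were picked. Within dura mater, Cspg4 was higher in replicate 1 and Notch3 in replicate 2. Their promoters are shown, as 250 bases before and 50 after the start of transcription from RefSeq (GRCm38.p6), 5′ to 3′ on the strand of the gene. They lie at chr6:142571565-142571864 (minus) for Kcnj8, chr9:56864854-56865153 (plus) for Cspg4 and chr17:32166841-32167140 (minus) for Notch3. Capitals mark TGGGAA, the core of the site of RBPJ, the DNA-binding partner of Notch receptors.
Kcnj8: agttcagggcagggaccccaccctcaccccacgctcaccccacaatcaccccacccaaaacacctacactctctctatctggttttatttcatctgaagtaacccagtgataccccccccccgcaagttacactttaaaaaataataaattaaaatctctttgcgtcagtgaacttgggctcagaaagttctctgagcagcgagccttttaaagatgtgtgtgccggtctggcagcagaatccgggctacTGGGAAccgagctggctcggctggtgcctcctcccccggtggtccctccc
Cspg4: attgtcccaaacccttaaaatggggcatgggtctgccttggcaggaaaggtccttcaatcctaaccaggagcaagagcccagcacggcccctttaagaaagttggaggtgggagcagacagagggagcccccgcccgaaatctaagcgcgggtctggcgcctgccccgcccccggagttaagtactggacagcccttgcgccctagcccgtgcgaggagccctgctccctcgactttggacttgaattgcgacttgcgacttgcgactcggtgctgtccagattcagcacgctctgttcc
Notch3: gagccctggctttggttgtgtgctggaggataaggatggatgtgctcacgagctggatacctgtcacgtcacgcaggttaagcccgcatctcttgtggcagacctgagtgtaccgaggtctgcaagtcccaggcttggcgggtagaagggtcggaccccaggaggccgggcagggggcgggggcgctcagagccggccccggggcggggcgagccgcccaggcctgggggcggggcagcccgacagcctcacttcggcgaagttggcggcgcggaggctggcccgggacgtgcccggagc
The promoters differ in base composition, with a GC content of 53.3% and 9 CpG sites for Kcnj8, 60% and 17 for Cspg4 and 70% and 25 for Notch3, against medians of 52.7% and 7 over the 32817 promoters of the table. TGGGAA, searched on both strands (TTCCCA on the other), was found in 25.6% of all promoters and in 3 of the 7 members with a promoter in the table. Kcnj8 held 1 match, which begins at the first transcribed base, Acta2 held 1 and Vtn 3. The CArG box, the binding site of serum response factor in contractile genes, was searched as CC, 6 bases of A or T and GG, which reads alike on both strands. An exact match was found in 1.63% of all promoters and in 0 of these 7 windows; with 1 base off allowed, 21.1% of all promoters held it and so did 3 of the 7, with 2 matches each in Acta2 and Cspg4 and 1 in Kcnj8. A match in these letters is a description of the window and not a site of binding. Pdgfb, Pdgfrb and Tagln had no entry.

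Rgs5, a regulator of G protein signalling that is among the most used pericyte markers (chromosome 1, 169655501 to 169695813, plus strand), had 11 and 342 counts in brain and 2 and 179 in dura mater. It was thus high in replicate 2 of either tissue and low in replicate 1 of either tissue, with the lower of the replicate 2 libraries 14.4-fold above the higher of the replicate 1 libraries in CPM. The replicates differed by 34.1-fold in brain and 73.5-fold in dura mater. Nothing in the labels ties libraries with the same number to each other, and 552 of the genes tested (5.91%) showed such a gap of at least 10-fold. The tissues overlapped, with means of 13.3 ± 17.7 CPM in brain and 5.56 ± 7.65 CPM in dura mater (SD, n = 2), and the log2 fold change was -1.24 (SE 3.18), at an adjusted p of 1 in edgeR, and 2.58 without brain replicate 2.

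Vtn, which encodes vitronectin, an adhesive matrix protein made by brain pericytes (chromosome 11, 78499091 to 78502324, plus strand), had 234 and 0 counts in brain and 420 and 77 in dura mater. Its pattern was the opposite of that of Rgs5 in brain, where Rgs5 was read in replicate 2 and Vtn in replicate 1. The means were 8.07 ± 11.4 CPM in brain and 18 ± 18.8 CPM in dura mater (SD, n = 2). The log2 fold change was 1.14 (SE 3.31; edgeR adjusted p = 1), and -0.89 without dura mater replicate 1. The 2 genes that both mark brain pericytes were therefore never both above 64 counts in a brain library, but were so in dura mater replicate 2.

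Acta2, α-smooth muscle actin (chromosome 19, 34241090 to 34255590, minus strand), was read in each library, at 344 and 805 CPM in brain and 565 and 224 CPM in dura mater. The highest library was a brain library and the lowest a dura mater library, with the other two between them, and the replicates were 2.34-fold and 2.52-fold apart. The means were 574 ± 326 CPM in brain and 395 ± 241 CPM in dura mater (SD, n = 2). The log2 fold change was -0.54 (SE 0.61; edgeR adjusted p = 0.999) with an interval of -2.02 to 0.94, and its SE was the smallest of the 10 genes. Without brain replicate 2 the value was 0.15.

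Tagln, which encodes the actin-binding protein SM22α of smooth muscle (chromosome 9, 45929619 to 45936058, minus strand), had 53.3 and 4.31 CPM in brain and 180 and 71.7 CPM in dura mater. The groups did not overlap, though dura mater replicate 2 was nearer to brain replicate 1 than to its own replicate. The means were 28.8 ± 34.6 CPM and 126 ± 76.8 CPM (SD, n = 2), and the log2 fold change was 2.12 (SE 1.38), at an adjusted p of 0.738 in edgeR. Without brain replicate 1 Tagln passed the test (edgeR adjusted p = 0.00788). Tagln overlaps other genes: Pcsk7, on the opposite strand, overlaps 5.43% of its exon length, and the antisense gene Gm48529 overlaps 62.4% but has no line in the counts. Pcsk7, a proprotein convertase that was looked up after the values were seen, had 769 and 62 counts in the brain libraries, where Tagln had 772 and 57. The near-equal counts did not extend to dura mater replicate 1, where Tagln had 2418 counts and Pcsk7 761, and in replicate 2 they were 1170 and 1415. Whether reads of one of these genes were assigned to the other was not tested.

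Des, which encodes desmin, the intermediate filament of muscle cells and of pericytes (chromosome 1, 75360329 to 75368579, plus strand), was the 1 gene of the 10 that was lower in the dura mater with no overlap. It had 72.9 and 102 CPM in brain and 30.7 and 17.4 CPM in dura mater, with means of 87.5 ± 20.6 CPM and 24.1 ± 9.42 CPM (SD, n = 2). Replicates were closer than for most of the markers. The log2 fold change of -1.86 (SE 1.22, interval -4.81 to 1.10) did not pass the test (edgeR adjusted p = 0.751), and it stayed between -2.46 and -1.53 under the alternatives. The erythroid list, 7 of whose 8 genes were tested and were lower in both dura mater libraries than in either brain library, moved in the same direction. Its part in the Des counts was not tested.

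**Figure D2:**
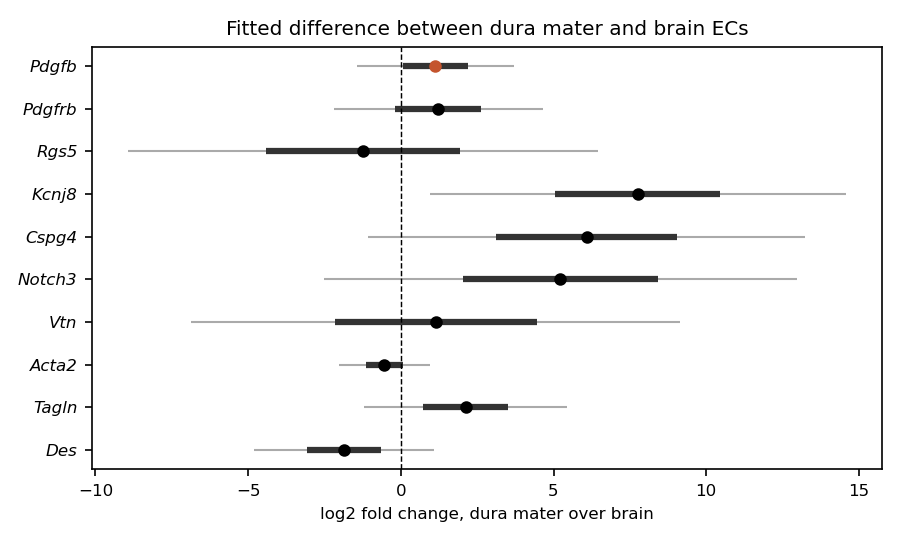
Log2 fold change of each gene between tissues (horizontal axis, dura mater over brain) from the edgeR fit to 4 libraries, with thick bars for 1 SE and thin bars for the 95% interval; Pdgfb is in orange. The interval of Kcnj8 alone lies above 0, before adjustment over genes, and those of the other 9 genes include 0.

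Over the 10 genes, 0 passed an adjusted p under 0.05 in edgeR's quasi-likelihood test, where 57 of 9347 genes did (0.61%). At an unadjusted p under 0.05, 1 of the 10 (Kcnj8) was higher in dura mater, against 7.04% of all genes tested in this direction. DESeq2 called 1 of the 10 (Kcnj8), against 9.02% of the genes it gave an adjusted p. The groups did not overlap and the dura mater was higher for 5 of the 10 (Pdgfb, Kcnj8, Cspg4, Notch3 and Tagln), against 26.2% of all genes tested. They did not overlap and the dura mater was lower for 1 (Des), against 16.9%. The other 4 genes (Pdgfrb, Rgs5, Vtn and Acta2) overlapped. The median log2 fold change of the 10 was 1.19 and that of all genes -0.01, but 3 of the 10 passed the filter only where they were high. With 2 libraries against 2, an exact two-sided permutation test of a single gene cannot give a p below 0.333, so only a fit across genes can call one.

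Summed over the 9 mural markers, the order of the libraries was not that of the tissues. The sums were 511 and 975 CPM in brain and 892 and 499 CPM in dura mater, or 0.0512% (95% Wilson interval 0.0501 to 0.0524, counting error only) and 0.0934% (0.0918 to 0.095) of the counts in brain and 0.0885% (0.0869 to 0.0901) and 0.0506% (0.0495 to 0.0517) in dura mater. Acta2 alone gave 45% to 82.5% of these counts. Relative to the counts of the 15 endothelial genes, the 9 markers stood at 3.86% and 6.36% in brain and at 7.75% and 3.58% in dura mater. Without Acta2, a choice made after its values were seen, the sums were 168 and 170 CPM in brain and 327 and 274 CPM in dura mater. The receptor and the 5 pericyte genes, a set trimmed in the same way, summed to 41.7 and 64 CPM in brain and to 116 and 185 CPM in dura mater. Both trimmed sets include Kcnj8, Cspg4 and Notch3, which passed the filter only through the dura mater libraries. The rest of the smaller set, Pdgfrb, Rgs5 and Vtn, each overlapped between the tissues. Pdgfrb alone had 125 CPM in dura mater replicate 2. These sums over chosen genes were not tested.

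**Figure D3:**
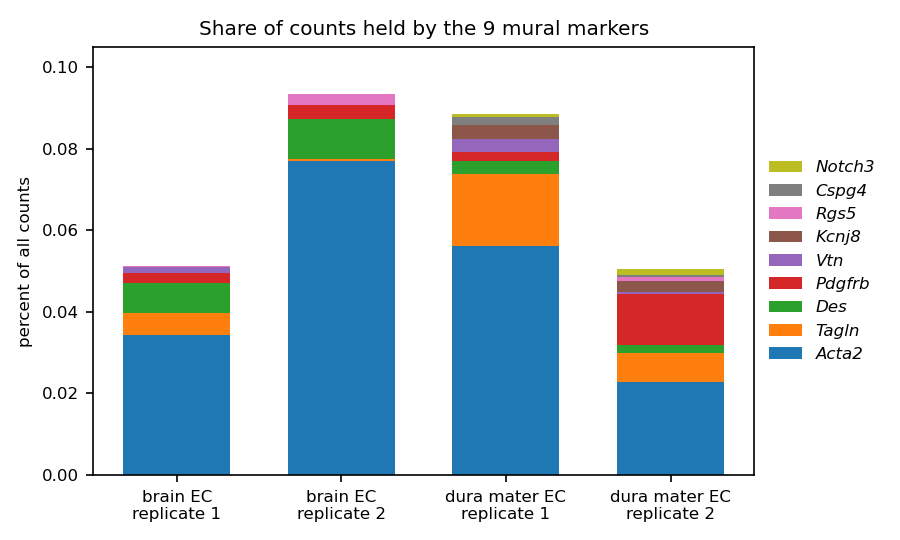
Share of all counts (vertical axis, percent, starting at 0) held by the 9 mural markers in each of the 4 libraries (horizontal axis), with 1 colour per gene. Acta2 fills the largest part of each bar, from 45% to 82.5%; brain replicate 2 and dura mater replicate 1 have the tallest bars, while Pdgfrb takes its widest band in dura mater replicate 2.

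Further pericyte genes, 19 in the list, were as uneven as the markers. Of the 11 that could be tested, 0 passed the test (edgeR, adjusted p under 0.05), against 0.61% of all genes tested. At an unadjusted p under 0.05 were 2 (936 of all 9347), and DESeq2 called 2 (9.02% of the genes it gave an adjusted p). With no overlap, 6 were higher in dura mater (26.2% of all genes tested were) and 1 was lower (16.9%). The median log2 fold change was 1.21. The 3 most counted were Mcam, the adhesion molecule CD146 that ECs also carry (log2 fold change 2.00, SE 0.95), Ifitm1 (-1.48, SE 1.47) and the transcription factor Ebf1 (0.79, SE 0.55). Named after their values were seen, Gucy1b3, a subunit of the nitric oxide receptor guanylate cyclase, with 0 and 0 counts in brain and 512 and 243 in dura mater, and the aminopeptidase gene Anpep, with 1 and 2 against 689 and 1627, had the same pattern as Kcnj8. The adjusted p of Anpep was 0.256 in edgeR and 1.9e-05 in DESeq2. Gucy1b3 and Anpep passed the filter only through the dura mater libraries, and 761 of the genes tested (8.14%) had this pattern. In contrast, 5 of the 19 genes were read at 64 counts or more in brain replicate 2 and at 7 or fewer in brain replicate 1. So were 1290 of the 23282 genes, of which 9622 had 0 counts in all 4 libraries, against 1 of the 19. Of all genes at this level in a brain library, 31.3% switched in one or the other direction. Of the 5 genes, Tbx18, a transcription factor of mural cells, had the highest count in brain replicate 2. It had 0 and 860 counts in brain and 0 and 1 in dura mater, and the others were Abcc9, Ndufa4l2, Pde5a and Zic1. The reverse held for Higd1b, with 792 and 0 counts in brain, and Gucy1a3, the other guanylate cyclase subunit, with 445 and 0.

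Smooth muscle genes, 16 in the list, gave 0 calls among 12 tested (edgeR, adjusted p under 0.05), against 0.61% of all genes tested. There was 1 at an unadjusted p under 0.05 (936 of all 9347) and 1 in DESeq2 (9.02% of the genes it gave an adjusted p). With no overlap, 4 were higher in dura mater and 2 lower, against 26.2% and 16.9% of all genes tested. The median log2 fold change was 0.49. The most counted were Mylk, the myosin light chain kinase (0.50, SE 0.37), Smtn, smoothelin (-0.88, SE 0.48), and Myh11, the smooth muscle myosin heavy chain. Myh11 had 2878 and 2276 counts in brain and 3972 and 1929 in dura mater (0.16, SE 0.60), so that, as for Acta2, the tissues overlapped. Cnn1, another contractile gene, had 4 counts in dura mater replicate 2 and 0 elsewhere, and Actg2 had 0 in all libraries. Among 11 genes of the serum response factor programme, which drives the contractile genes, 0 of 11 tested were called by edgeR, 0 at an unadjusted p and 0 by DESeq2, and the median was 0.35. Its most counted genes were the actins Actb (-0.26, SE 0.31) and Actg1 (0.45, SE 0.34) and the tropomyosin gene Tpm4 (-0.69, SE 0.29).

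**Figure D4:**
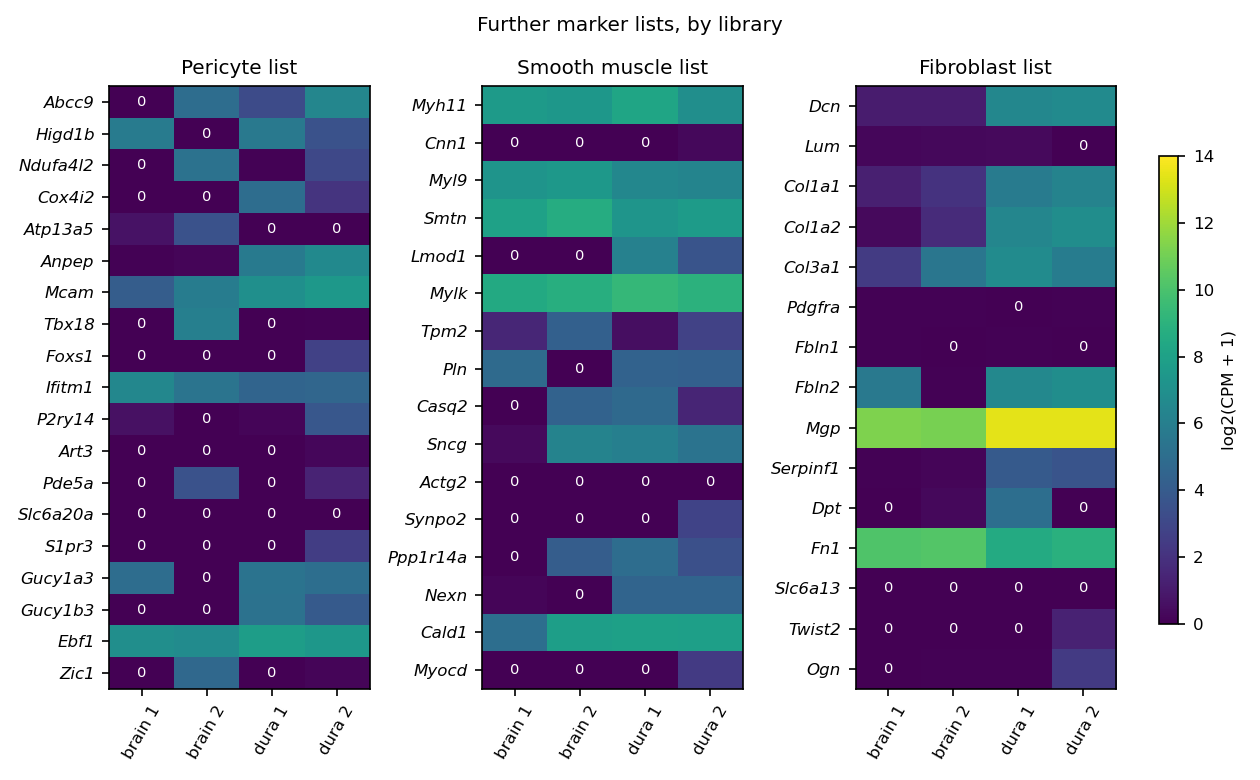
Level of each gene of the pericyte, smooth muscle and fibroblast lists (rows) in the 4 libraries (columns), as log2(CPM + 1) on a colour scale from 0 (dark) to 14 (yellow); a printed 0 marks a gene with 0 counts. Gaps at 0 are scattered over the pericyte list in single libraries, Myh11, Smtn and Mylk are read in each library, and Mgp is the most counted fibroblast gene.

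In the fibroblast list, 1 of 8 tested genes was called: Mgp, matrix Gla protein, which ECs also make, had 36701 and 29352 counts in brain and 146993 and 178439 in dura mater (log2 fold change 2.20, SE 0.24; edgeR adjusted p = 0.0248). At an unadjusted p under 0.05 were 4 of the 8. Over all genes tested, edgeR called 0.61%, and 936 of 9347 had an unadjusted p under 0.05. DESeq2 called 5 of the 8, against 9.02% of the genes it gave an adjusted p. Among these 5 was Fn1, fibronectin, which was lower in dura mater (log2 fold change -1.48, SE 0.33). Its adjusted p was 0.194 in edgeR and 0.00153 in DESeq2. The median was 3.49, and 7 genes were higher in dura mater and 1 lower with no overlap, against 26.2% and 16.9% of all genes tested. The other genes of the 15 did not pass the filter. A gene such as Serpinf1 (1 and 2 counts in brain, 199 and 184 in dura mater) passed it only where it was high. The median and these counts therefore describe the tested genes and not the whole list. At 64 counts or more were 3 of the 15 genes in each brain library and 9 in each dura mater library, among them Dcn, decorin, with 16 and 15 counts in brain and 1184 and 1664 in dura mater; genes of this list other than Mgp were named after their values were seen. The part of this list in the levels of Pdgfrb, Cspg4 and Tagln, which fibroblasts can also carry, was not tested.

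Of 12 Notch genes, 9 were tested and edgeR called 0 (0.61% of all genes tested), with a median of 0.35. At an unadjusted p under 0.05 was 1 (936 of all 9347), and DESeq2 called 1 (9.02% of the genes it gave an adjusted p). Notch1 had 2842 and 203 counts in brain and 6180 and 3711 in dura mater (log2 fold change 1.70, SE 1.10), Notch4, the endothelial receptor, 3263 and 2341 against 2744 and 3988 (0.16, SE 0.47), and the target gene Hes1 2694 and 1848 against 4231 and 10546 (1.56, SE 0.51; edgeR adjusted p = 0.428). Jag1, the endothelial ligand of Notch3, had 2696 and 1459 counts in brain and 2228 and 3445 in dura mater, and the mural target Heyl had 132 counts in dura mater replicate 2 and 0 elsewhere; both were named after their values were seen.

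Of 8 genes related to the channel of Kcnj8 and to the signalling that Rgs5 regulates, 6 were tested, with a median of 0.65. EdgeR called 0 (0.61% of all genes tested). At an unadjusted p under 0.05 was 1 (936 of all 9347), and DESeq2 called 2 (9.02% of the genes it gave an adjusted p). The G protein subunits Gnai2 (-0.33, SE 0.24) and Gnaq (0.36, SE 0.56) were read in each library. Rgs2, a relative of Rgs5, had 0 and 3 counts in brain and 2065 and 1460 in dura mater (log2 fold change 8.92, SE 1.90). Its adjusted p was 0.168 in edgeR and 7.76e-08 in DESeq2. Rgs2 therefore had the order of the tissues that Rgs5 did not. It passed the filter only through the dura mater libraries, as did Kcnj8, and 761 of the genes tested (8.14%) had this pattern.

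Of 7 partners of vitronectin and NG2, all 7 were tested and edgeR called 0 (0.61% of all genes tested). At an unadjusted p under 0.05 were 2 (936 of all 9347), and DESeq2 called 3 (9.02% of the genes it gave an adjusted p). The median was 2.66, and 3 of the 7 passed the filter only through the dura mater libraries. Itgb1, the β1 integrin chain, had a log2 fold change of 0.42 (SE 0.32), and Plat, tissue plasminogen activator, had 3787 and 729 counts in brain and 1398 and 1625 in dura mater (-0.63, SE 0.86). The vitronectin receptor chains Itgb3 and Itgb5, named after their values were seen, had 2 counts or fewer in each brain library and 555 or more in each dura mater library, whereas their partner Itgav had 454 and 747 counts in brain and 2 and 370 in dura mater.

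Of 16 other genes that signal between ECs and mural cells, 14 were tested, with a median of 0.35. EdgeR called 0 (0.61% of all genes tested). At an unadjusted p under 0.05 were 2 (936 of all 9347), and DESeq2 called 2 (9.02% of the genes it gave an adjusted p). Hbegf, a growth factor for smooth muscle, had 1251 and 426 counts in brain and 15051 and 5341 in dura mater (log2 fold change 3.61, SE 0.80), with an adjusted p of 0.193 in edgeR and 3.53e-05 in DESeq2. The sphingosine 1-phosphate receptor gene S1pr1 (-0.59, SE 0.53) and Eng, endoglin (0.57, SE 0.38), were the other most counted genes. The endothelin receptor gene Ednrb, named after its values were seen, had 0 and 0 counts in brain and 1479 and 1283 in dura mater. Its adjusted p was 0.155 in edgeR and 2.53e-07 in DESeq2. Like Kcnj8, Ednrb passed the filter only through the dura mater libraries, and 761 of the genes tested (8.14%) had this pattern.

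**Figure D5:**
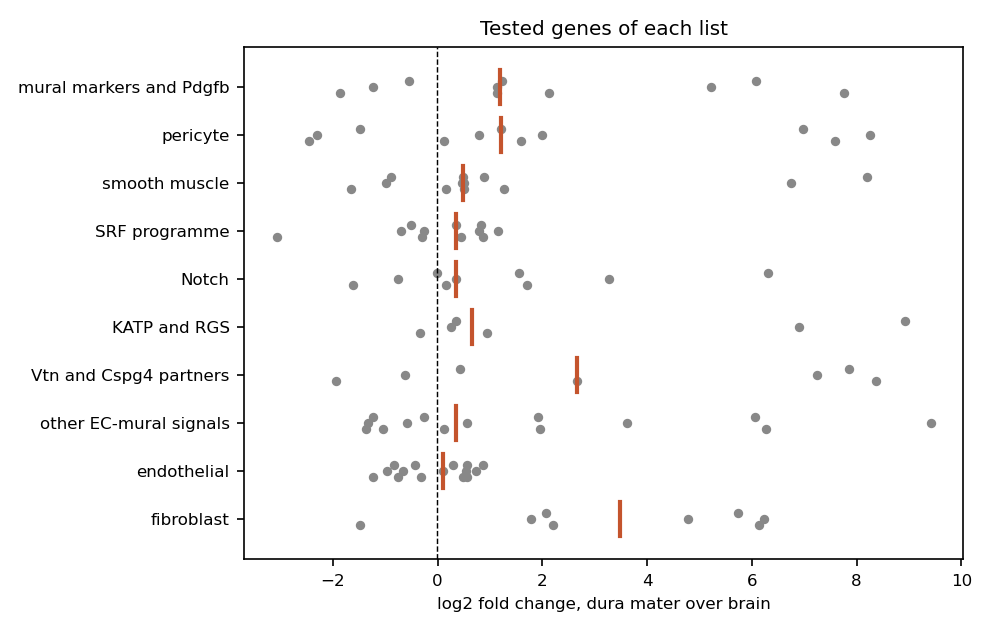
Log2 fold change (horizontal axis, dura mater over brain) of each tested gene in 10 lists (rows), with grey points for genes and orange bars for the median of a list. Medians run from 0.10 for the endothelial list to 3.49 for the fibroblast list, and single genes beyond 5 had 31 counts or fewer in each brain library.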

How the data were processed

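RNA of 2 brain EC and 2 dura mater EC libraries was made into QuantSeq 3′ libraries. For each library the authors deposited whole-number counts for 23282 gene lines, with no scaling or filter. Their methods name TopHat and cufflinks, while the submitters' processing notes name Bowtie2, edgeR and mm10; the counter, the annotation, and the use of strand and of molecular identifiers are not given in the sources used here. A 3′ method reads the end of each transcript, so counts were not divided by gene length, and shares of counts and rankings by count are of these libraries' counts, not of transcript levels per length. Column names differ from the sample titles, and each table was assigned by its sample record.

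Groups and replicate numbers came from the titles. The test was edgeR 4.0.16 (R 4.3.3), quasi-likelihood, on the counts as deposited, with TMM scaling, filterByExpr, tissue as the only term, a prior count of 2 and p-values adjusted by Benjamini-Hochberg over all 9347 tested genes. The cufflinks comparison of the study needs alignments and was not repeated. The SE is the log2 fold change over the square root of F, and the 95% interval uses the moderated degrees of freedom. DESeq2 1.42.0, limma-voom 3.58.1, the newer dispersion estimate, RLE, upper-quartile and library-size scaling, other filters, a replicate block, thinning, an adjusted p of 0.01 and each library left out in turn were alternatives. The sums without Acta2, Mgp or Fn1, the sum of the receptor and pericyte genes, and the unadjusted p were added after seeing the data. Scripts were tested on simulated data. Totals were 13518973 to 16096203 counts; intervals on counts and the floor of 3 counts cover counting error only. Positions are from GENCODE M21 (GRCm38). The members and the 13 lists were chosen with earlier results of these data known. Besides all 10 members, each list's called genes (at most 6) or, with none called, its 3 most counted genes are named, and the 5 genes most like Pdgfb and Pdgfrb by log2(CPM + 1); other names were chosen after their values were seen, and 1 gene that this rule names is not reported here. Gucy1a1 and Gucy1b1 were matched by their older symbols. Mrtfa and Mrtfb were read only under their older symbols, Mkl1 and Mkl2, which the list also named.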

Additional observations from a re-analysis of the deposited data

How the results depend on the processing

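The 57 genes called over the whole table became 810 with DESeq2, 306 with the newer dispersion estimate, 326 without the filter on low counts, 141 with 10 counts required in every library, 1 at an adjusted p under 0.01 and 936 at an unadjusted p under 0.05; with 1 library left out they ran from 80 (without dura mater replicate 1) to 740 (without brain replicate 1), where the lone library of a tissue is assumed to vary like the others. Of the 10 genes, 0 were called by edgeR with all 4 libraries and an adjusted p, 1 by DESeq2 and 1 at the unadjusted p, and 0 to 2 with 1 library left out, the 2 being Pdgfb and Tagln without brain replicate 1. A replicate block gave 224 genes and 0 of the 10; same-numbered libraries did not deviate together (correlation -0.0208 across genes), and no label ties a number to shared mice. Of 145 fold changes of single members under 15 alternatives, 138 kept their direction and their side of the threshold and 3 newly passed it; the 4 that reversed each left out 1 library, with values from -0.49 (without dura mater replicate 2) to 1.85 for Pdgfrb, -5.53 to 2.58 (without brain replicate 2) for Rgs5, -1.50 to 0.15 (without brain replicate 2) for Acta2 and -0.89 (without dura mater replicate 1) to 7.04 for Vtn; the cause was not tested. The sum of the 9 mural markers was 511 and 975 CPM in brain and 892 and 499 CPM in dura mater, so the tissues overlapped. Without Acta2 the sum was 168 and 170 CPM in brain and 327 and 274 CPM in dura mater. Kcnj8, Cspg4, Notch3, Rgs5 and Vtn gave no value where 10 counts were required in every library. With 2 libraries per tissue, no difference was called in Rgs5 or Vtn, whose replicates lay far apart. The missing calls do not show that the tissues are alike, and the size of difference that could be called was not tested.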
